A study of Drosophila melanogaster with 18 samples.

Results

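The proteasome subunit genes are the 48 fly genes whose FlyBase symbol begins with Prosalpha, Prosbeta, Rpn or Rpt followed by a digit, among 16957 features of the deposited tables. Of these, 32 are the standard subunits and 16 carry a T or R after the subunit number, the mark of paralogs, several of which are known from the testis. The standard set holds 7 genes of the alpha ring, 7 of the beta ring, 6 base ATPases, 4 other base subunits and 8 lid subunits, all on 80 transcript rows together with the paralogs. The rule that selects them reads the symbol alone, so a subunit with another kind of symbol, such as Sem1 of the lid, is left out.

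The proteasome is the barrel-shaped protease that degrades proteins marked with ubiquitin. Its core particle is a stack of alpha rings, which gate the entry, and beta rings, which hold the proteolytic sites. The regulatory particle caps it: the base unfolds the substrate with a ring of AAA ATPases and binds ubiquitin, and the lid removes the ubiquitin chain. In flies, many standard subunits have a duplicated gene copy that is used in male germ cells and builds a testis form of the particle.

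The cells were OSCs, a cultured line of ovarian somatic cells from the follicle lineage of the Drosophila ovary. RNA was sequenced 2 days after knockdown of Piwi (the nuclear Argonaute protein of the piRNA pathway), of Mael (Maelstrom, which acts with it in transposon silencing), of Brm (Brahma, the ATPase of the SWI/SNF chromatin remodellers), or of EGFP as the control. ChIP-seq of Brm, Polybromo and Osa, subunits of these remodellers, was done after 2 days of Piwi knockdown and in control cells that carried the EGFP knockdown, with 1 input per condition shared by Brm and Polybromo and another for Osa. Every group held 1 library, so differences could not be set against a spread between replicates, and no test is given. All intervals below are 95% intervals that cover counting error alone. They are Clopper-Pearson intervals, except Poisson intervals for the order of the levels and normal intervals for ChIP changes. In these bulk samples fewer cells with a transcript and less of it per cell cannot be told apart.

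The RNA libraries held 8965485 (Piwi), 9498401 (Mael), 4865533 (Brm) and 8983374 (EGFP) reads, and the ChIP and input libraries 475231 to 2779828. The targeted genes were low where the labels say. In the Piwi knockdown piwi had 10.95 RPKM (reads scaled to transcript length and library size) against 81.5 in EGFP. The gene mael had 4.20 in the Mael knockdown against 14.5, and brm 0.54 in the Brm knockdown against 6.66. Transcripts of piwi were also low in the Brm knockdown, at 21.3 RPKM (-1.55 on the relative log2 scale used below). The ovarian somatic marker tj stood at 132.7, 85.9, 55.6 and 93.3 RPKM in the Piwi, Mael, Brm and EGFP libraries, and the matched germline markers vas, aub, AGO3, osk and bam at 2.00 RPKM or less in each. All 4 ovarian somatic markers that were tested (tj, Fas3, piwi and zfh1) were lower in the Brm knockdown, with a median of -0.74 on the relative log2 scale used below. This shift moves with the Brm results on the proteasome, and its part in them was not tested.

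All 32 standard subunits were expressed in every RNA library, and the core genes among them had more RNA per length than the regulatory genes. The 14 core genes had a median of 228 RPKM in the Piwi, 216 in the Mael, 188 in the Brm and 245 in the EGFP library. The 18 regulatory genes had medians of 79.5, 91.2, 59.6 and 90.8 RPKM in the same libraries, so the core median was 2.87, 2.37, 3.16 and 2.69 times as high. These groups barely overlapped. In the Mael, Brm and EGFP libraries Rpn13 was the one regulatory gene above the lowest core gene. In the Piwi library Rpn11 and Rpn13 were above the lowest core gene. This separation holds only for the genes taken by symbol. Sem1, a lid gene without such a symbol, had 1026, 787, 627 and 960 RPKM in the Piwi, Mael, Brm and EGFP libraries. These values are above those of all core genes. The standard subunits took up 0.566% (interval 0.559 to 0.573) of all reads in the Piwi, 0.555% (0.548 to 0.561) in the Mael, 0.435% (0.427 to 0.444) in the Brm and 0.621% (0.614 to 0.629) in the EGFP library. Of all reads, 88.9%, 89.9%, 78.0% and 88.0% fell in features in these libraries, in the same order. The Brm share is thus taken over a total with fewer reads in features, which its interval does not cover.

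In the alpha ring of the EGFP library, Prosalpha6 and Prosalpha3 led with 358 RPKM each. Prosalpha2 had 337, Prosalpha5 265, Prosalpha1 246, Prosalpha7 239 and Prosalpha4 177 RPKM. The ring thus spanned a 2.02-fold range. Reads of Prosalpha1 cannot be told apart from those of its copy Prosalpha1R, and both together had 508 RPKM. The place of Prosalpha1 and the range of the ring are therefore uncertain. In the beta ring, Prosbeta6 had 377 RPKM, the highest value of a standard subunit when Prosalpha1 is counted apart from its copy. Prosbeta4 at 334 and Prosbeta3 at 243 followed in this ring. The catalytic subunits did not share a level: Prosbeta5, which carries the chymotrypsin-like site, had 240.1 RPKM, Prosbeta1 (caspase-like) 207 and Prosbeta2 (trypsin-like) 164, close to the structural subunit Prosbeta7 at 164 RPKM.

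Among the base ATPases, which form the unfolding ring, Rpt6 had 139 RPKM and Rpt2 131 in the EGFP library, while Rpt3 (84.3), Rpt1 (75.5), Rpt5 (72.5) and Rpt4 (59.8) lay lower. The other base subunits were spread over a 19.2-fold range. Rpn13, a ubiquitin receptor, had 247 RPKM, and Rpn10, also a ubiquitin receptor, 78.3. The large scaffold subunits were the lowest of all, with 35.0 RPKM for Rpn2 and 12.9 for Rpn1. In the lid, Rpn9 had 137 RPKM, Rpn11 (the deubiquitinase) 130.4, Rpn3 108, Rpn8 (its partner in the same domain family) 103.6, Rpn12 103.4, Rpn6 97.3, Rpn5 67.7 and Rpn7 54.1. Along the whole order, 24 of 31 neighbouring pairs had overlapping counting intervals, so that their order is not resolved. The steps that were resolved lay below Prosbeta4, Prosalpha7, Prosbeta1, Prosbeta7, Rpn11, Rpn7 and Rpn2.

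**Figure D1:**
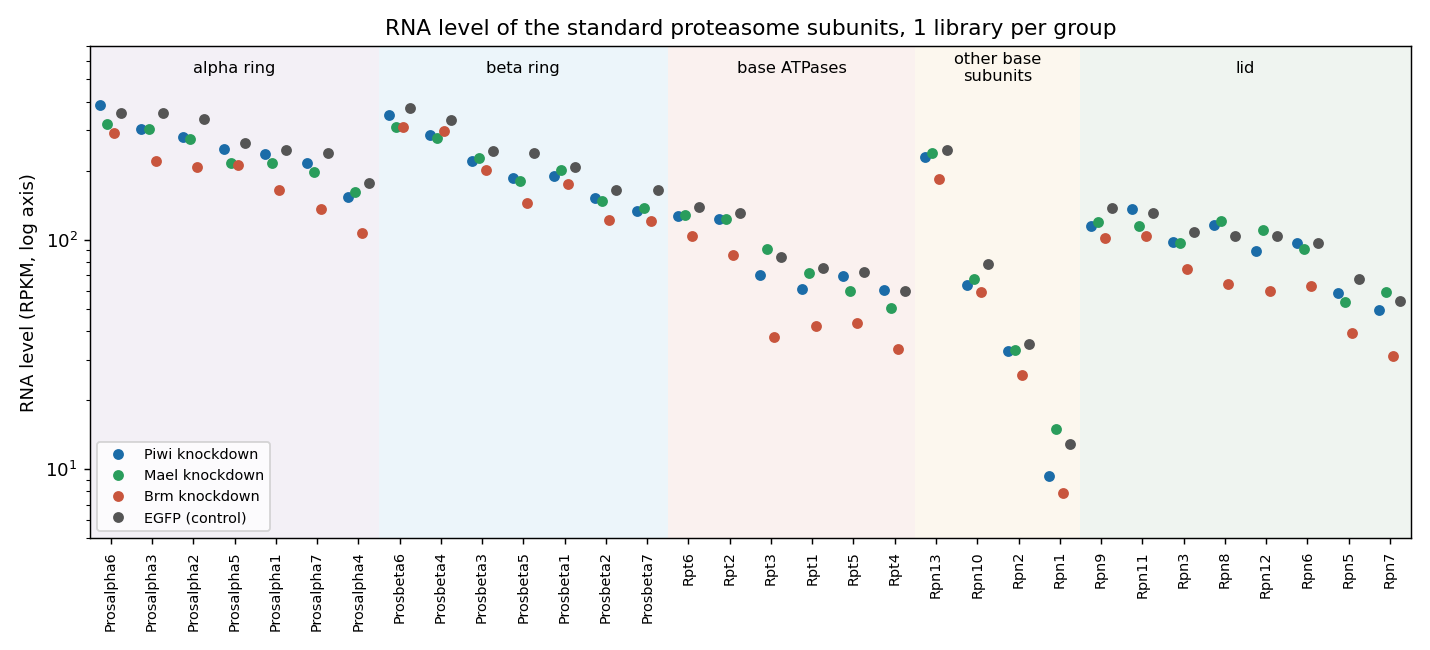
RNA level in RPKM (log axis) of the 32 standard subunits, grouped by role and ordered by the EGFP library within a group; each point is 1 library. The core genes lie above nearly all regulatory genes in every library, Rpn13 being the exception in all 4, and the Brm knockdown points are below the EGFP points for all 32 genes.

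Knockdown of Piwi left the proteasome genes in a narrow band just under the median feature. Ratios were taken as log2 of (RPKM + 1) in the knockdown over the EGFP library, among features with a mean of at least 5 RPKM, relative to the median ratio of those features. The 32 standard subunits had a median of -0.09 (quartiles -0.20 and -0.06), against quartiles of -0.18 and 0.20 over all 5357 features tested, and 27 of the 32 were below the median feature. They also had more reads, a median of 1673 in the EGFP library against 313 over all features tested, so their counting error was smaller. None passed 2-fold, where 1.66% of all features did. By a smaller 1.2-fold rule, chosen after the values were seen, 0 subunits (0%) were higher, against 20.1% of all features, and 3 (9.38%) were lower, against 17% of all features.

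The lowest and highest members of the Piwi comparison came from different layers of the particle. The scaffold subunit Rpn1 had 9.32 RPKM in the Piwi knockdown and 12.9 in EGFP, a relative log2 ratio of -0.39 with a read interval of -0.77 to -0.09. Prosbeta5 had 186 against 240.1 RPKM (-0.32, -0.45 to -0.20), and Rpt1, an ATPase, 60.7 against 75.5 RPKM (-0.27, -0.46 to -0.08). Their intervals all lie below the median feature. At the other end, Rpn8 had 116 RPKM in the Piwi knockdown against 103.6 in EGFP (0.21, 0.06 to 0.36), Prosalpha6 387 against 358 RPKM (0.15, 0.06 to 0.25) and Rpn11 136 against 130.4 RPKM (0.10, -0.05 to 0.25). The Rpn11 interval spans the median feature. Rpn8 (chromosome 2R, 24400028 to 24404527 in the Release 6 assembly) overlaps the kinase gene Slik over 2653 bases, and the library kit is not stated to keep strand, so reads there cannot be told apart. Slik itself had 11.9 RPKM in the Piwi knockdown and 12.01 in EGFP.

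In the knockdown of Mael the set lay close to the median feature, and the core and the regulatory particle lay on different sides of the median feature. The standard subunits had a median of -0.04 (quartiles -0.13 and 0.04), against quartiles of -0.18 and 0.20 over 5292 features, with 19 below and 13 above. The core median was -0.12, with 12 of 14 genes below, and the regulatory median 0.02, with 11 of 18 above. The sign of the regulatory median depends on the scale, since the median feature itself was at -0.12 in this comparison and the regulatory median was -0.10 on the values as deposited. No subunit passed 2-fold, as did 1% of all features. By the 1.2-fold rule 2 subunits (6.25%) were higher, against 18.6% of all features, and 1 (3.12%) was lower, against 16.2%.

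Lid and scaffold genes stood at the top of the Mael comparison. Rpn8 had 120.4 RPKM in the Mael knockdown and 103.6 in EGFP, a relative ratio of 0.34 (0.19 to 0.49), while the overlapping Slik had 9.49 against 12.01 RPKM. Rpn1 had 14.9 against 12.9 RPKM (0.32, 0.04 to 0.63), the opposite side from its place in the Piwi comparison, and Rpn7, a lid subunit, 59.0 against 54.1 RPKM (0.24, 0.03 to 0.46). The lowest were Prosbeta5 with 180.5 against 240.1 RPKM (-0.29, -0.41 to -0.16), the lid subunit Rpn5 with 53.4 against 67.7 RPKM (-0.22, -0.40 to -0.05) and Prosalpha5 with 216 against 265 RPKM (-0.17, -0.31 to -0.05). Prosbeta5 was thus the lowest in this comparison and the next to lowest in the Piwi comparison. The comparisons share the EGFP library, so a high EGFP value of a gene lowers each of its ratios.

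In the Brm knockdown the standard subunits had their lowest median, with unequal values along the particle, while all features had their widest spread. All 32 were lower than in EGFP on the values as deposited, where the median feature was also lower (-0.34). The deposited values are scaled to all reads, of which 78.0% fell in features in the Brm and 88.0% in the EGFP library. Relative to that feature the standard subunits had a median of -0.26 (quartiles -0.39 and -0.07), against quartiles of -0.34 and 0.32 over 5083 features, with 25 below and 7 above. No subunit passed 2-fold on this scale, where 7.99% of all features did. By the 1.2-fold rule 16 subunits (50%) were lower, against 30.1% of all features, and 0 (0%) were higher, against 29.1%. The library of this knockdown had the fewest reads, and its part in the spread was not tested.

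The base ATPases were the lowest group and the beta ring the highest. The 6 ATPases had a median of -0.43, all 6 below the median feature and 5 of them lower by at least 1.2-fold. The alpha ring had a median of -0.36 (5 of 7 below), the lid -0.32 (7 of 8 below) and the other base subunits -0.09 (4 of 4 below). The beta ring had a median of 0.06 with 4 of 7 genes above the median feature, although all 7 were lower than in EGFP on the values as deposited. From reads summed over each group the relative log2 ratio was -0.36 (-0.46 to -0.27) for the ATPases, -0.23 (-0.29 to -0.17) for the alpha ring, -0.25 (-0.32 to -0.17) for the lid, -0.11 (-0.21 to -0.01) for the other base subunits and -0.02 (-0.08 to 0.04) for the beta ring. The interval of the beta ring thus lies above those of the ATPases, the alpha ring and the lid.

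Rpt3 (chromosome X, 11125101 to 11126785) was the lowest member in the Brm comparison. It had 70.0 RPKM in the Piwi, 91.5 in the Mael, 37.8 in the Brm and 84.3 in the EGFP library, so the Brm library was the lowest by far. Its relative ratio in the Brm knockdown was -0.80 (-1.10 to -0.55), at percentile 7.42 of all features tested. On the values as deposited it was -1.14, which is past 2-fold. Its 2 transcript rows gave -0.77 and -0.79. The interval of Rpt3 overlaps those of several other members, among them Rpt1 and Rpt4, so its distance from them is not resolved.

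Rpt1 and Rpt4 followed. Rpt1 had 42.2 RPKM in the Brm knockdown and 75.5 in EGFP (-0.49, -0.77 to -0.24), and Rpt4 33.5 against 59.8 RPKM (-0.48, -0.81 to -0.20). Rpt1 lies within the span of CG17985, which had 6.95 RPKM in the Brm knockdown and 6.85 in EGFP. Rpt6, the most abundant ATPase, was close to the median feature with 104 against 139 RPKM (-0.07, -0.26 to 0.10). The highest members were all of the beta ring: Prosbeta4 with 297 against 334 RPKM (0.17, 0.02 to 0.31), Prosbeta1 with 176 against 207 RPKM (0.10, -0.08 to 0.28) and Prosbeta3 with 201 against 243 RPKM (0.06, -0.10 to 0.23). The lowest gene of that ring was Prosbeta5 with 144 against 240.1 RPKM (-0.40, -0.57 to -0.23). Prosbeta7 (-0.11) and Prosbeta2 (-0.09) also lay below the median feature, with intervals that span it.

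**Figure D2:**
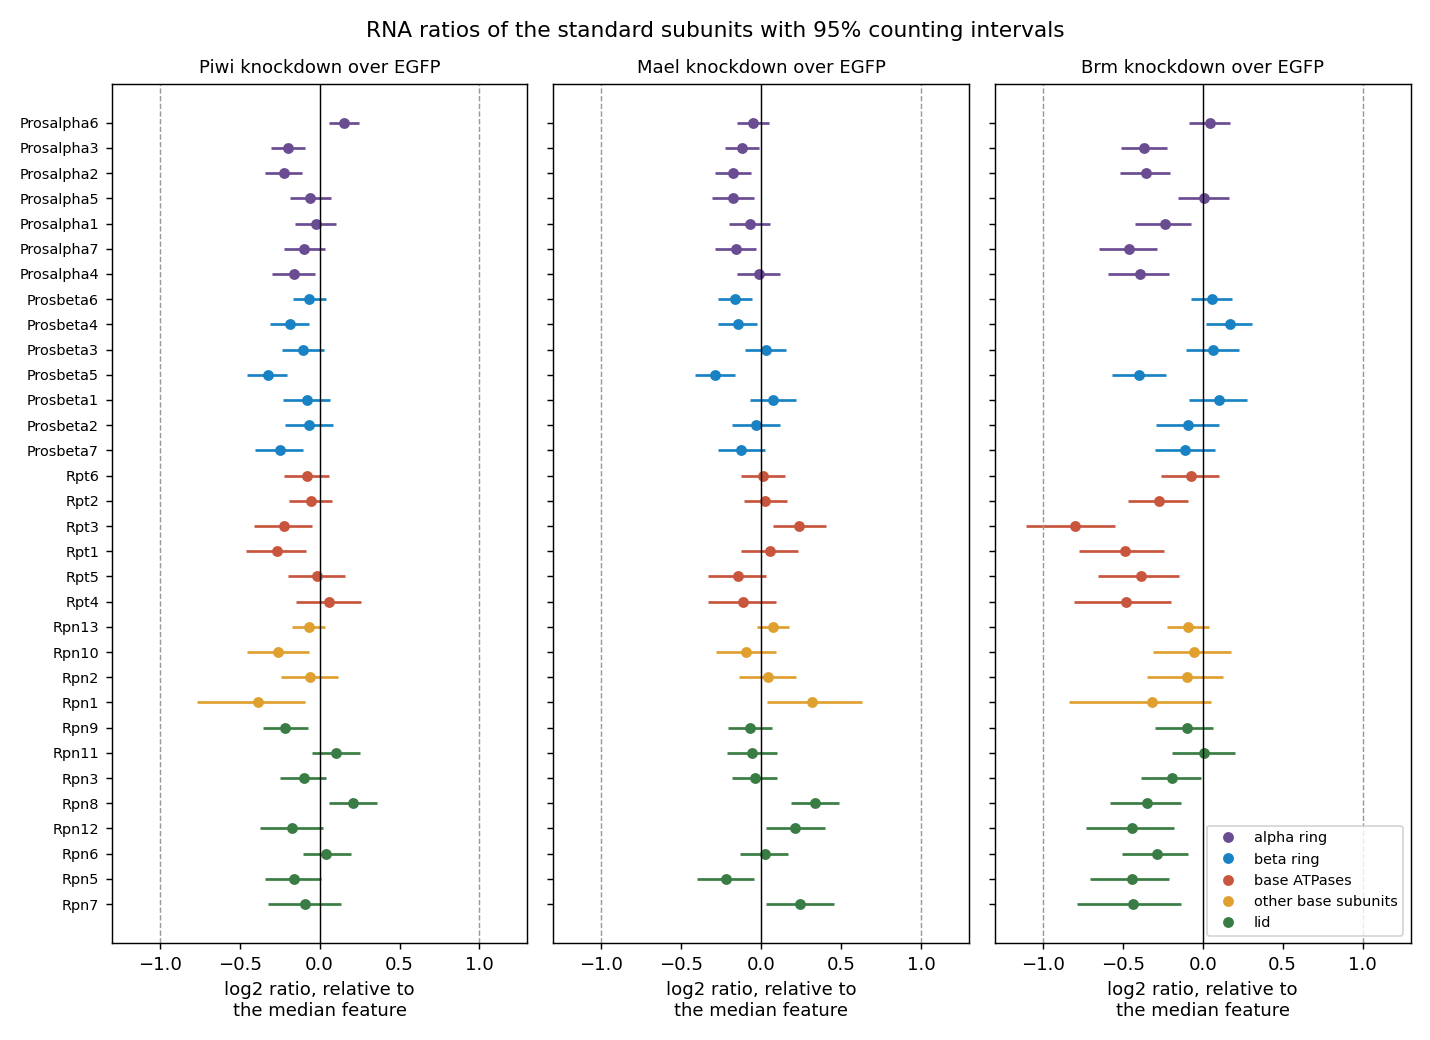
Relative log2 ratios (x axis, 0 is the median feature, dashed lines mark 2-fold) of the 32 standard subunits in the 3 knockdowns over EGFP, with 95% counting intervals, coloured by role. The Brm panel shows the ATPases from -0.80 to -0.07 and the beta ring from -0.40 to 0.17; the Piwi and Mael panels stay within -0.39 to 0.34.

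Across the 32 genes the Brm ratio was related to the level in EGFP, with Spearman's rho 0.48, and to the length of the longest transcript, with rho -0.38. Over all 5083 features tested rho with the EGFP level was -0.12. In the Mael comparison the corresponding values over the 32 genes were -0.42 with the level and 0.31 with the length, and in the Piwi comparison 0.05 and 0.02. These are descriptions over genes of the same pair of libraries, and the EGFP level enters both sides. Core genes are both more abundant and shorter in message, so role, level and length cannot be told apart here.

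**Figure D3:**
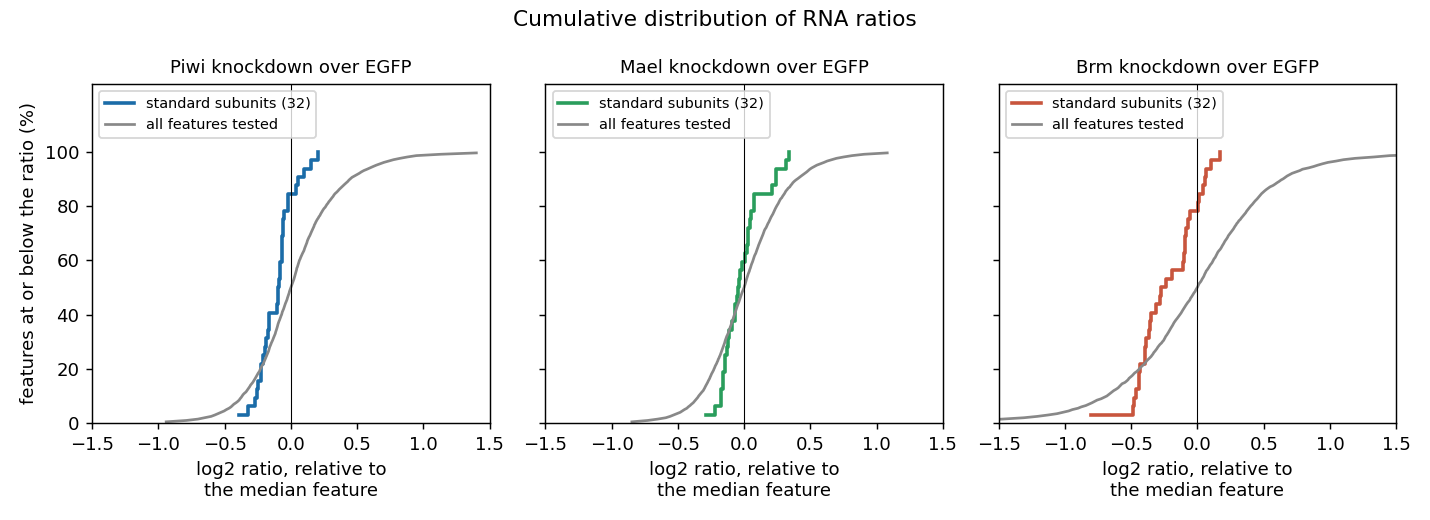
Cumulative share (%) of the 32 standard subunits (coloured steps) and of all features tested (grey) at or below a relative log2 ratio, in the 3 knockdowns over EGFP. The subunits form steeper curves than all features in each panel and lie to the left over most of the Piwi and Brm panels.

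The paralogs were mostly without RNA. Of 16, 9 had no read in any of the 4 RNA libraries: Prosalpha3T, Prosalpha4T1, Prosbeta2R1, Prosbeta4R2, Prosbeta5R1, Prosbeta5R2, Rpn12R, Rpn13R and Rpt4R. A count of 0 allows up to 3 fragments, which is 6 reads at 2 reads per fragment, for example 0.751 RPKM for Prosalpha3T in the EGFP library, where Prosalpha3 had 358. Another 3 had reads in 1 library each: Prosalpha4T2 4 reads in the Mael knockdown, and Prosalpha6T 2 and Prosbeta4R1 4 reads in the Brm knockdown. Of the 8 testis markers, dj, can, sa and fzo were at 0 in all 4 RNA libraries. The others were low: Mst84Db had 3.96 RPKM in the Brm knockdown and 0 elsewhere, and aly 0.196 RPKM in EGFP and 0 elsewhere. Mst87F had 0.50, 0, 1.72 and 0.931 RPKM and bam 2.00, 0.667, 0.434 and 0.705 RPKM in the Piwi, Mael, Brm and EGFP libraries.

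The remaining 4 paralogs had more reads, but those given to Prosalpha1R may come from Prosalpha1. Prosalpha1R (chromosome 2R, 7830413 to 7831771) had 222, 215, 165 and 262 RPKM in the Piwi, Mael, Brm and EGFP libraries, next to 236, 216, 165 and 246 RPKM for Prosalpha1 (2R, 7827303 to 7828678). The tables list each transcript of either gene at 2 places, so that both have 4 rows, and their reads are close to equally divided. Reads of these neighbouring copies cannot be told apart, and both values are uncertain. Together they had 457.7, 431, 329.8 and 508 RPKM.

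Rpt6R, a copy of Rpt6, had 28.6, 32.7, 19.1 and 37.4 RPKM in the Piwi, Mael, Brm and EGFP libraries. Rpt3R, a copy of Rpt3, had 15.8, 15.9, 22.5 and 22.1 RPKM. Prosbeta2R2 had 2.199, 4.39, 2.18 and 3.12 RPKM from 26, 55, 14 and 37 reads. These 3 genes were thus read in every library, always below their standard subunits.

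Rpt3R and Rpt3 differed in the Brm knockdown. On reads as deposited, Rpt3R (chromosome 3R, 9754735 to 9756510) had a log2 ratio of 0.03 (-0.39 to 0.44) over EGFP, while Rpt3 had -1.16 (-1.44 to -0.88). Rpt3R made up 36.4% (29.9 to 43.2) of the reads of the pair in the Brm knockdown and 20.1% (17.2 to 23.2) in EGFP. In the Piwi and Mael knockdowns the share was 17.8% (14.8 to 21.2) and 14.3% (11.9 to 17.0). The pair of Rpt6 did not follow this: Rpt6R had -0.97 (-1.39 to -0.58) and Rpt6 -0.41 (-0.60 to -0.23) in the Brm knockdown, and the share of Rpt6R was 15.9% (12.5 to 19.7), against 21.8% (19.4 to 24.3) in EGFP. The intervals of the Rpt6R share in these libraries overlap.

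**Figure D4:**
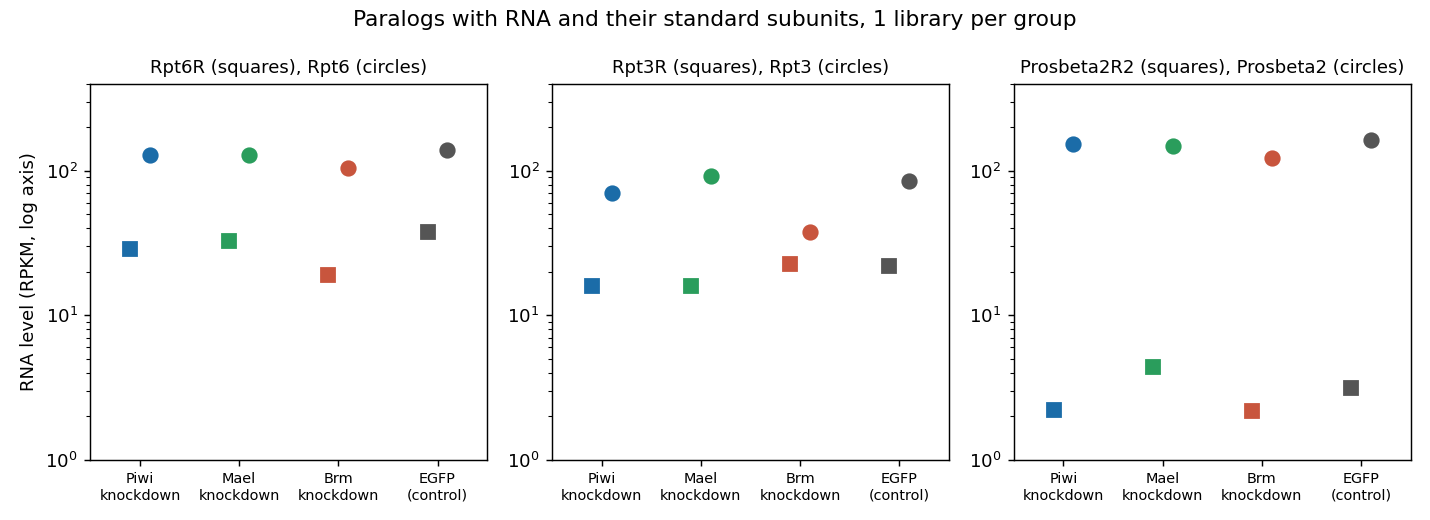
RNA level in RPKM (log axis) of 3 paralogs (squares) and of their standard subunits (circles) in the Piwi, Mael, Brm and EGFP libraries, 1 library each. Rpt3 and Rpt3R are closest in the Brm knockdown, at 37.8 and 22.5 RPKM; Prosbeta2R2 stays at 4.39 RPKM or less.

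Genes that work with the proteasome were followed from lists chosen by function. Of 16 partner genes, 14 were tested in the Brm comparison, with a median of -0.17, none past 2-fold relative to the median feature. By the 1.2-fold rule 5 of them (35.7%) were lower, against 30.1% of all features, and 1 (7.14%) was higher, against 29.1%. Uch-L5, a deubiquitinase of the regulatory particle, had 29.2 RPKM in the Brm knockdown and 63.6 in EGFP (relative ratio -0.76), and TER94, the segregase that feeds it substrates, 50.7 against 102.7 RPKM (-0.67). On the values as deposited Uch-L5 and TER94 were lower by more than 2-fold. PI31, a proteasome regulator, lay on the other side with 46.2 against 39.1 RPKM (0.57). In the Piwi and Mael comparisons 15 partner genes were tested, with medians of 0.03 and -0.03 and none past 2-fold.

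The 4 ubiquitin genes had medians of -0.02, 0.08 and 0.29 in the Piwi, Mael and Brm comparisons, none past 2-fold. Ubi-p63E, a polyubiquitin gene, had 41.0 RPKM in the Brm knockdown against 34.9 in EGFP (0.56). The 10 genes of the CncC axis, the stress pathway known to raise proteasome genes in flies, had 8 tested in each comparison and medians of 0.06, 0.06 and 0.09. The regulator cnc had 26.2, 15.5, 11.4 and 15.6 RPKM in the Piwi, Mael, Brm and EGFP libraries, with a relative ratio of 0.76 in the Piwi knockdown. Among the targets, GstD2 passed 2-fold in the Piwi knockdown with 7.90 against 17.4 RPKM (-1.01). In the Brm knockdown GstD1, a glutathione transferase, had 733 against 442 RPKM (1.06) and Gclc, an enzyme of glutathione synthesis, 9.27 against 5.27 RPKM (1.05). Both were past 2-fold relative to the median feature, but not on the values as deposited.

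In control cells, Brm ChIP reads over the standard subunit genes exceeded input more than over the median feature. Values per gene in these tables cover its transcripts, so binding outside them was not measured here. Over the 32 genes, 1039 Brm ChIP and 373 input reads gave a log2 ratio of 0.63 (0.46 to 0.81) relative to the median feature, against 0.15 (0.14 to 0.15) for the reads of all features summed. The alpha ring had 199 ChIP and 50 input reads (1.15, 0.69 to 1.62), the lid 287 and 88 (0.86, 0.51 to 1.22) and the beta ring 171 and 56 (0.76, 0.32 to 1.23). The base ATPases had 172 and 74 reads (0.37, -0.03 to 0.78), the other base subunits 210 and 105 (0.15, -0.19 to 0.51), and the 16 paralogs 280 and 140 (0.15, -0.14 to 0.46). The intervals of the last 3 groups hold the value of all features.

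Gene by gene, the reads were few. The input floor kept 20 standard subunits, with a median of 0.39 and 14 above the median feature, and 1 of them (5%) was higher by at least 2-fold, against 4.54% of all features kept. None (0%) was lower by 2-fold, against 3.74% of all features. The higher gene was Prosalpha4 (chromosome X, 16276270 to 16277587) with 54 ChIP and 11 input reads (1.25). Rpn10 with 43 and 11 reads (0.94) and Prosbeta6 with 30 and 8 reads (0.89) followed. The lowest were paralogs: Prosalpha4T1 with 7 ChIP and 10 input reads (-0.89), Rpn13R with 11 and 11 (-0.55) and Prosbeta5R2 with 15 and 14 (-0.53).

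Polybromo was nearer to the median feature. The 288 ChIP and 373 input reads over the 32 genes in control cells gave 0.23 (-0.00075 to 0.45), against 0.20 (0.20 to 0.21) over all features, and the interval holds the value of all features. The alpha ring was at 0.81 (0.24 to 1.39) from 58 ChIP reads and the other base subunits at -0.56 (-1.09 to -0.05) from 47. Of 20 standard subunits kept, with a median of -0.17, 1 (5%) was higher by at least 2-fold, against 3.55% of all features, and it was again Prosalpha4, with 19 ChIP and 11 input reads (1.19). None (0%) was lower by 2-fold, against 6.2% of all features. The shared input of Brm and Polybromo enters both values. Rpt3R had 23 ChIP and 13 input reads (1.21) and Rpn12 10 and 8 reads (0.76), while Rpn1 with 9 and 34 (-0.88), Rpn13R with 3 and 11 (-0.82) and Rpt3 with 4 and 14 reads (-0.80) were lowest.

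**Figure D5:**
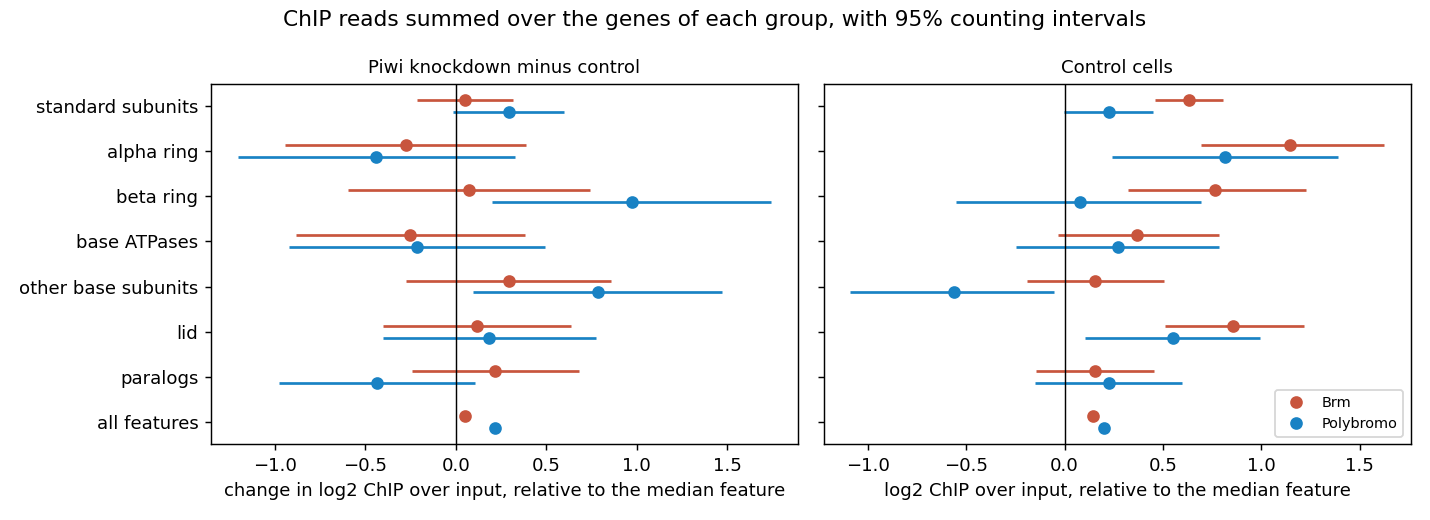
Reads summed over the genes of each group: change of log2 ChIP over input on Piwi knockdown (left) and log2 ChIP over input in control cells (right), relative to the median feature, for Brm and Polybromo with 95% counting intervals. In control cells the Brm values of the alpha ring, beta ring and lid lie at 0.76 or above, and the value of all features is 0.15; the changes of the standard subunits on Piwi knockdown hold 0 in their intervals for both.

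On Piwi knockdown, no change of Brm over the standard subunits as a set was detectable. The Piwi knockdown libraries had 458 ChIP and 325 input reads, against 1039 and 373 in control cells, a change of 0.05 (-0.22 to 0.32) relative to the median feature. Of 20 standard subunits kept, 3 were higher and 1 lower by at least 2-fold (20%), against 14.6% of all features past 2-fold. Prosalpha6 had 19 ChIP and 8 input reads in the Piwi knockdown against 30 and 18 in control cells (1.32), Rpn3 40 and 9 against 52 and 17 (1.296), and Rpn13 27 and 9 against 58 and 22 (1.02). Rpn8 had 10 and 13 against 34 and 8 reads (-1.05). Of the 6 paralogs kept, Rpt6R passed 2-fold with 25 and 9 against 23 and 12 reads (1.29).

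For Polybromo the reads summed over the standard subunits were 393 ChIP and 325 input in the Piwi knockdown and 288 and 373 in control cells. The change was 0.29 (-0.01 to 0.60), with 17 of 20 genes above 0, next to 0.21 (0.20 to 0.22) for all features summed. The beta ring had 89 ChIP and 51 input reads in the Piwi knockdown against 39 and 56 in control cells, a change of 0.97 (0.20 to 1.74). The other base subunits were at 0.79 (0.10 to 1.47) and the lid at 0.19 (-0.40 to 0.78). The alpha ring was at -0.44 (-1.20 to 0.33), the ATPases at -0.21 (-0.92 to 0.50) and the paralogs at -0.44 (-0.98 to 0.10). The intervals of all these groups except the paralogs hold the value of all features, and that of the paralogs lies below it. By the 2-fold rule 3 of the 20 (15%) were past it, against 17.9% of all features. They were Rpn13 with 15 ChIP and 9 input reads in the Piwi knockdown against 9 and 22 in control cells (1.36), Prosbeta1 with 10 and 7 against 3 and 8 (1.19) and Rpt3 with 11 and 11 against 4 and 14 (1.05). Among the paralogs Prosalpha4T1 had 2 and 10 against 8 and 10 reads (-1.60) and Rpt3R 6 and 11 against 23 and 13 (-1.59). All 5 rest on fewer than 25 ChIP reads in each library.

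In the Osa libraries many of these genes had no or few reads. In control cells 5 of the 32 standard subunits had no ChIP read and 1 no input read, and in the Piwi knockdown 1 had no ChIP read and 4 no input read. Rpn12 had 0 ChIP and 20 input reads in the Piwi knockdown against 11 and 0 in control cells. In control cells Prosalpha6 had 0 ChIP and 21 input reads, Rpn1 0 and 59 and Prosalpha1R 0 and 15, while Rpn11 had 31 and 7 (2.47), Prosbeta7 28 and 12 (1.61) and Prosbeta2 14 and 7 (1.48). The 25 standard subunits kept had a median of -0.46. By the 2-fold rule 6 of them (24%) were higher, against 19.1% of all features, and 8 (32%) were lower, against 24.2%.

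Of 27 standard subunits kept for the Osa change on Piwi knockdown, with a median of 0.18, 18 (66.7%) passed 2-fold, against 56% of all features, a share near that of all features. They were Prosalpha1, Prosalpha4, Prosalpha6, Prosalpha7, Prosbeta3, Prosbeta4, Prosbeta5, Prosbeta7, Rpn1, Rpn2, Rpn5, Rpn6, Rpn7, Rpn12, Rpn13, Rpt1, Rpt3 and Rpt4, with 10 higher and 8 lower. The paralogs Prosalpha1R, Prosbeta2R1, Rpt3R and Rpt4R passed it too. Summed over the 32 genes, Osa had 426 ChIP and 288 input reads in the Piwi knockdown against 370 and 571 in control cells. The ratio in control cells was -0.10 (-0.30 to 0.09) and the change 0.12 (-0.16 to 0.41), next to 0.65 and 0.11 for all features summed. By group, the summed change was 2.28 (1.47 to 3.09) for the other base subunits, 1.302 (0.53 to 2.07) for the alpha ring and 0.30 (-0.39 to 0.99) for the beta ring. It was -0.86 (-1.54 to -0.18) for the ATPases and -0.98 (-1.497 to -0.46) for the lid. The paralogs were at 0.99 (0.28 to 1.69). Single genes weighed heavily in these sums. Rpn1 went from 0 ChIP and 59 input reads in control cells to 15 and 1 in the Piwi knockdown. The other base subunits had 144 control input reads in all. Prosalpha6 went from 0 and 21 reads to 34 and 2. In the control Osa input 4633 features had no read, against 838 in the control Polybromo ChIP of similar depth. The counting intervals do not cover such unevenness, so these groups are not shown to differ.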

How the data were processed

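RNA and ChIP tables were deposited by the authors as RPKM per transcript, that is, reads scaled to length and library size (unit read from the values). Bowtie2 2.2.4 and dm6 are named, per the submitters' processing notes. How reads were counted is not given in the sources used here. A further 4 columns of RNA values could be tied to no sample and were left aside. The 4 ovary libraries were not analysed here.

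Library totals and feature lengths were found as the numbers that turn RPKM into whole reads (within 0.01), for 99.97% to 99.98% of values above 0. In the RNA libraries 54.1% to 58.7% of features with over 20 reads had even counts, and 45.5% to 49.3% in ChIP, so RNA intervals conservatively use 1 fragment per 2 reads. Transcripts were matched to symbols by the RefSeq table of Release 6 and their RPKM summed per gene. The median summed control input rose from 5.08 RPKM for genes with 1 transcript to 7.35 for genes with 6. The value per transcript fell to 1.22, so reads of isoforms look divided among them. Whether the remaining rise enters the levels of genes with many transcripts, such as Rpn13 with 6, was not tested. Transposons of other species were left out. Fold changes with the pseudocount understate the change of low genes.

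RNA used a pseudocount of 1 and a floor of 5 RPKM. For ChIP over input, a constant (the 5th percentile of nonzero input RPKM) was added on both sides, among features with input at or above its median. The interval of a ChIP change is a normal interval of log read ratios. The 1.2-fold rule, the summed ChIP reads and the set without Prosalpha1 were added after the data were seen.

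The members and lists (markers, partners, ubiquitin genes, CncC axis, COP9 signalosome, eIF3, CCT and conjugation genes) were chosen with earlier results of these data known. Named were all standard subunits, the 3 highest and 3 lowest per comparison, members past 2-fold, paralogs with reads and list genes past 2-fold. Other list genes, Rpt6 and the neighbours were named after their values were seen. Promoter and protein sequences were not used here. The steps were tested on simulated data, in Python 3.11.15 with pandas 2.3.3, numpy 2.4.6 and scipy 1.17.1.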

Additional observations from a re-analysis of the deposited data

How the results depend on the processing

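Of the values for the standard subunits as a set, 22 moved under another setting. The other 50 kept their count or shifted by no more than the counting error of the summed reads. Of the values of single genes 243 stayed, 22 moved and 1 was reversed. Among the values of single genes, 10 values of 4 genes changed sign. The RNA medians stayed below 0 in every setting, and their size moved with the scale, since the median feature at which they are otherwise centred is itself not at 0. Without a floor (when the median feature is at 0), and on the values as deposited, they were -0.13 (Piwi), -0.16 (Mael) and -0.59 (Brm), and with equal sums outside transposons -0.21 (Mael) and -0.53 (Brm). In each of these 3 settings 1 subunit, Rpt3, passed 2-fold in the Brm knockdown, and the 3 highest subunits changed sign: Prosbeta3, Prosbeta1 and Prosbeta4 were at -0.27, -0.24 and -0.17 without a floor or as deposited and at -0.21, -0.17 and -0.11 with equal sums. In these settings the Mael median was farther from 0 than the Piwi median, which was -0.10 with equal sums. With 1.2-fold in place of 2-fold, 3 subunits were lower in the Piwi, 2 higher and 1 lower in the Mael and 16 lower in the Brm knockdown. A pseudocount of 0.1, a floor of 1 RPKM, the highest transcript and leaving out Prosalpha1 shifted the RNA medians by no more than that counting error. In control cells the Brm ChIP median was 0.59 with the transcript of highest input and 0.63 from summed reads, and the Polybromo value 0.23 from summed reads, in place of -0.17. For Osa the control median, -0.46, was -0.73 with the lower input floor, 0.21 with the transcript of highest input and -0.10 from summed reads, and the median change, 0.18, was -0.26 with that transcript, so that both changed sign there, as did Rpn2 with a change of -0.084. Small median changes crossed 0 to -0.016 for Brm with the lower input floor and to -0.0041 for Osa with the median of the input added. The causes of the ChIP shifts were not tested. No paired analysis was possible because each group held 1 library. Few ChIP reads per gene limit all gene-level ChIP values.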

Other observations

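Other large complexes give the proteasome values a scale. The 13 genes of eIF3, the translation initiation factor, had medians of -0.10, 0.15 and 0.24 in the Piwi, Mael and Brm comparisons, and in the Brm knockdown 12 were above the median feature and 5 (38.5%) were higher by at least 1.2-fold, against 29.1% of all features. eIF3i, for example, had 212 RPKM in the Brm knockdown against 178 in EGFP (0.59). These values are relative to the median feature, which was at -0.12 in the Mael and -0.34 in the Brm comparison, so on the values as deposited the eIF3 median of the Brm comparison lies below 0. The 8 genes of the CCT chaperonin had medians of -0.22, 0.11 and 0.08, and the 8 of the COP9 signalosome, which is related to the lid, -0.10, -0.07 and -0.12, of which 2 (25%) were lower by at least 1.2-fold in the Brm knockdown, against 30.1% of all features. No gene of the 3 complexes passed 2-fold in any RNA comparison. The 10 ubiquitin conjugation genes had medians of 0.17, -0.15 and 0.06, none past 2-fold. In Brm ChIP of control cells, summed reads gave 0.58 (0.33 to 0.82) for eIF3, 0.49 (0.19 to 0.80) for CCT and 0.24 (-0.12 to 0.61) for the COP9 signalosome. The interval of eIF3 overlaps that of the standard proteasome subunits (0.46 to 0.81).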
